A study of Homo sapiens with 6 samples.

Results

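The response of A549 cells, an established line from a human lung adenocarcinoma, to the first of 2 siRNAs against MYEOV was measured against a control siRNA. It covers 4 of the study's 6 arrays, the 2 from cells given MYEOV siRNA 1 and the 2 from cells given the control siRNA siNC, and the other 2 arrays come from cells given MYEOV siRNA 2. All 6 cultures were A549 cells transfected with Lipofectamine RNAiMAX and harvested 48 hours later, and total RNA was hybridised to Affymetrix whole-transcript arrays as biotin-labelled cDNA. No siRNA sequence was given, nor what the control siRNA targets. Whether the 2 arrays of a group came from separate transfections is not stated, so every p-value below rests on a spread between arrays that may be technical only.

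An siRNA is a short double-stranded RNA. One of its strands is taken up by an Argonaute protein and guides it to matching transcripts, which are then cut or destabilised. Messages that pair only with the guide's seed, the bases near its 5′ end, can be lowered as well, much as a microRNA lowers its targets. A single siRNA can therefore change transcripts besides its target, and studies commonly use a second siRNA of another sequence. MYEOV lies on chromosome 11 in the band that holds CCND1, was first described as overexpressed in myeloma, and is found in several carcinomas.

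Values are log2 signals, so a difference of 1 is a 2-fold change, and fold changes are given on this log2 scale with their standard error (SE). The study had 2 arrays in each group, and n = 2 per group throughout. Genes were compared where a row carried exactly 1 gene symbol and its mean signal over the study's 6 arrays reached the median of all named genes, which held for 7442 genes of 14884 and left none with a mean under 5.451. A gene was called when limma gave a Benjamini-Hochberg adjusted p under 0.05 over all 7442. The median over all rows lay between 4.08 and 4.10 on each of the 6 arrays.

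The siRNA 1 arrays differed from the control arrays in a limited set of transcripts, in both directions about equally. Limma with Benjamini-Hochberg adjustment called 347 genes, which is 4.66% of those tested, with 170 higher (2.28%) and 177 lower (2.38%). An unadjusted p under 0.05 was reached by 1430 genes (19.2%), of which 731 were higher (9.82%) and 699 lower (9.39%). The median change over all genes tested was -0.00271, the quartiles were -0.0941 and 0.0996, and 49.2% of changes were above 0. Most calls were small: 8 of the higher and 14 of the lower genes passed 2-fold, 69 and 88 lay between 0.5 and 1, and 93 and 75 were below 0.5 in size. In bulk RNA, fewer cells of a kind and less RNA per cell cannot be told apart. All 347 called genes had both siRNA 1 arrays outside the range of the control arrays, but so did 24.4% of all genes on the high side and 24.4% on the low side. With the genes cut into 4 equal bins by mean signal, the dimmest bin had the fewest calls, 2.53% against 5.22%, 5.86% and 5.05% in the brighter ones.

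**Figure D1:**
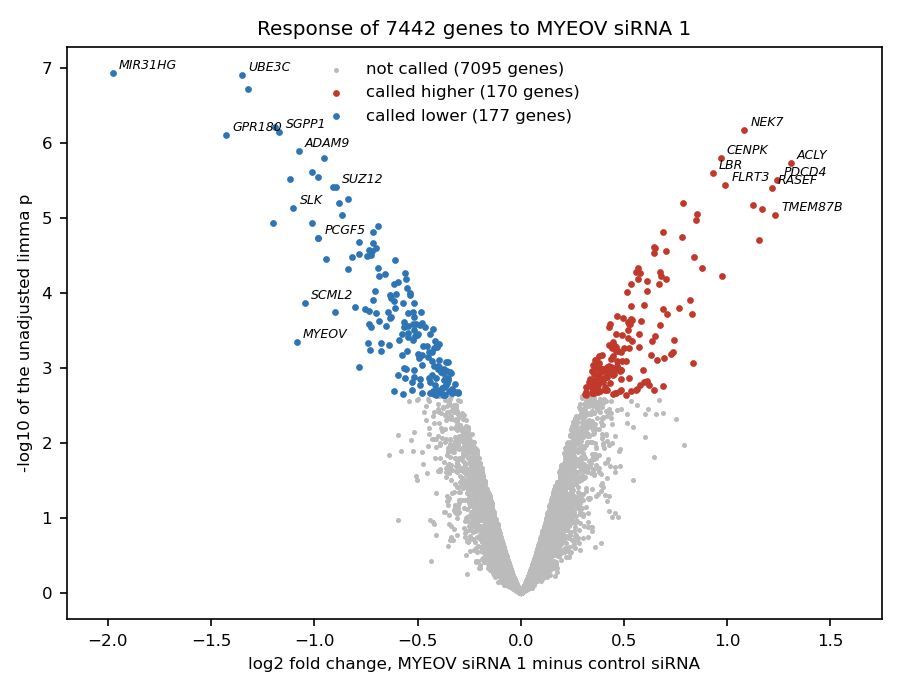
Each of the 7442 genes is a point, with its log2 fold change (siRNA 1 minus control) on the x axis and -log10 of the unadjusted limma p on the y axis; red points are the 170 called higher and blue points the 177 called lower, with 18 genes labelled. The largest fall, of MIR31HG, stands apart at -1.98, while the largest rise, of ACLY, was 1.31.

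The number of calls depended on every one of the 4 arrays. Leaving out the first control array left 93 calls, the second 87, the first siRNA 1 array 97 and the second 58, and the lone array of a group is then assumed to vary like the others. Testing every named gene, dim ones included, left 39 (17 higher, 22 lower). Of the 40 largest changes described below, 20 rises and 20 falls, 28 stayed past the threshold in every alternative run. These genes were picked for the size of their change on the same arrays, which favours their staying called.

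MYEOV itself was lower in both siRNA 1 arrays. Its log2 signal was 6.20 and 6.50 in the control arrays and 5.34 and 5.19 with siRNA 1, so the groups did not overlap. The change was -1.09 ± 0.18 (SE), with a 95% interval of -1.50 to -0.67, and on the linear scale the signal fell by 52.9% (limma adjusted p = 0.0215). Several brighter messages, such as GPR180 and UBE3C, fell further than the targeted one. Both siRNA 1 values of MYEOV were below the expression filter, and its mean over all 6 arrays, 5.53, was just above it. The size of the MYEOV fall is therefore uncertain. With 1 array left out of the control or siRNA 1 group the fall ran from -1.23 to -0.94 and missed the threshold each time, with limma adjusted p = 0.0671 and 0.112 without control replicates 1 and 2, and 0.0880 and 0.146 without siRNA 1 replicates 1 and 2. With no filter on dim genes it had adjusted p = 0.135.

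The largest change of all was the fall of MIR31HG, a long non-coding RNA and the host transcript of miR-31. It stood outside the ranking, which left out non-coding symbols, and is described because its value was seen. The control arrays had 8.51 and 8.36 and the siRNA 1 arrays 6.56 and 6.36, a change of -1.98 ± 0.09 (limma adjusted p = 0.000467), so the linear signal fell by 74.6%. With siRNA 2 it read 8.44 and 8.35, within 0.1 of the control mean, and the difference between the siRNAs was -1.94 ± 0.09 (limma adjusted p = 0.000144). The mature microRNA of this locus is shown because the array reads the host transcript and not the microRNA, whose level was not measured. Capitals mark its seed, bases 2 to 8 from the 5′ end, and the sequence is from RefSeq GRCh38.p14, chr9:21512158-21512178, minus strand.
hsa-miR-31-5p: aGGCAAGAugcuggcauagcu

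The protein-coding genes with the deepest falls came from many functions. GPR180, an orphan receptor-like membrane protein, read 8.28 and 8.41 in the controls and 6.88 and 6.95 with siRNA 1, a change of -1.43 ± 0.09. UBE3C, a HECT ubiquitin ligase that works at the proteasome, read 9.39 on both control arrays and 8.03 and 8.06 with siRNA 1, a change of -1.35 ± 0.06. SKAP2, an adaptor of Src family kinases, fell from 7.26 and 7.49 to 6.26 and 6.10, a change of -1.20 ± 0.11. In each of these genes both siRNA 1 arrays lay at least 1 below the lower control array.

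Several of the other deep falls were of enzymes. SGPP1, which removes the phosphate of sphingosine-1-phosphate, went from 8.96 and 8.99 to 7.77 and 7.85 (-1.17 ± 0.07). STAMBP, a deubiquitinase that acts on endosomes, went from 6.32 and 6.35 to 5.13 and 5.31 (-1.12 ± 0.08). SLK, a STE20-type kinase of the cytoskeleton, went from 10.63 and 10.61 to 9.63 and 9.41 (-1.10 ± 0.10). Replicates of a group were close in these enzymes, and the groups were far apart by comparison. ADAM9, a membrane metalloprotease and among the brighter genes here, had 11.10 and 11.18 in the controls against 10.11 and 10.02. AFG3L2, a protease of the inner mitochondrial membrane, had 9.66 and 9.71 against 8.73 and 8.62. UBE4A, which lengthens ubiquitin chains, and TRIM37, a ubiquitin ligase known for limiting centriole assembly, fell by 0.95 ± 0.07 and 0.91 ± 0.07. The limma adjusted p of these genes lay between 0.000467 and 0.00273, and all of them stayed past the threshold in every alternative run.

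The rest of the 20 largest falls were TEX30 (-1.19), the Polycomb genes SCML2, PCGF5 and SUZ12, TTC9C (-1.01), FCHSD2 (-0.98), a regulator of actin at clathrin-coated pits, LIMS3 (-0.98), CCDC28A (-0.94) and GALNT1 (-0.90), a transferase that starts mucin-type O-glycans. LIMS3 is a near-identical copy of other LIMS genes whose reads its probes may share, so its identity is uncertain. Its relative LIMS1 had a change of -0.05 (limma adjusted p = 0.929). Averaging all rows of a gene took CCDC28A to -0.294 and past the threshold no more (limma adjusted p = 0.311). GALNT1 missed it without the second control or the first siRNA 1 array (0.0776 and 0.0708), and SCML2 without either control array (0.0747 and 0.0550).

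ACLY, the enzyme that splits citrate to supply acetyl-CoA in the cytosol, rose the most. Its signal was 10.50 and 10.62 in the controls and 11.83 and 11.90 with siRNA 1, a rise of 1.31 ± 0.09 (95% confidence interval 1.09 to 1.52; limma adjusted p = 0.00126). PDCD4, a repressor of translation that binds the helicase eIF4A, rose from 7.64 and 7.43 to 8.83 and 8.72 (1.24 ± 0.09). TMEM87B, a Golgi membrane protein, rose from 6.58 and 6.24 to 7.67 and 7.61 (1.23 ± 0.11). The siRNA 1 arrays of these genes sat more than 1 above both controls. RASEF, a large GTPase of the RAB family, rose from 7.31 and 7.06 to 8.44 and 8.37 (1.22 ± 0.10). TMEM65, a mitochondrial inner membrane protein, rose from 7.75 and 7.40 to 8.67 and 8.79 (1.16 ± 0.12).

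Smaller rises among the leading 20 included nuclear and cell division genes. NEK7, a mitotic kinase that also serves the NLRP3 inflammasome, went from 5.83 and 5.88 to 6.94 and 6.93 (1.08 ± 0.07). LBR, the lamin B receptor of the inner nuclear membrane, went from 8.20 and 8.25 to 9.11 and 9.19 (0.93 ± 0.07). FLRT3, a cell-surface adhesion protein, went from 6.82 and 6.87 to 7.88 and 7.79 (0.99 ± 0.08). In all of these the replicates lay close together and the groups far apart. TMEM64 (0.97), the CUL3 adaptor KLHL15 (0.88), the endosomal RAB5 effector ANKFY1 (0.85), the ciliary protein CEP19 (0.84), the abscission factor CHMP4C (0.83), the annexin ANXA13 (0.83), the Golgi protein GOLIM4 (0.82), the synaptic scaffold HOMER1 (0.78), TCP11L1 (0.78) and ITIH2 (0.77), a carrier of hyaluronan, were also among the 20, as were the centromere genes MIS18A and CENPK described below. Of the 20, TMEM64, KLHL15, CEP19, CHMP4C, ANXA13, GOLIM4 and ITIH2 lost the call with at least 1 single array left out, with limma adjusted p from 0.0501 to 0.155. Without the second siRNA 1 array all of these missed the threshold. TCP11L1 missed it with dim genes tested too (limma adjusted p = 0.0516).

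**Figure D2:**
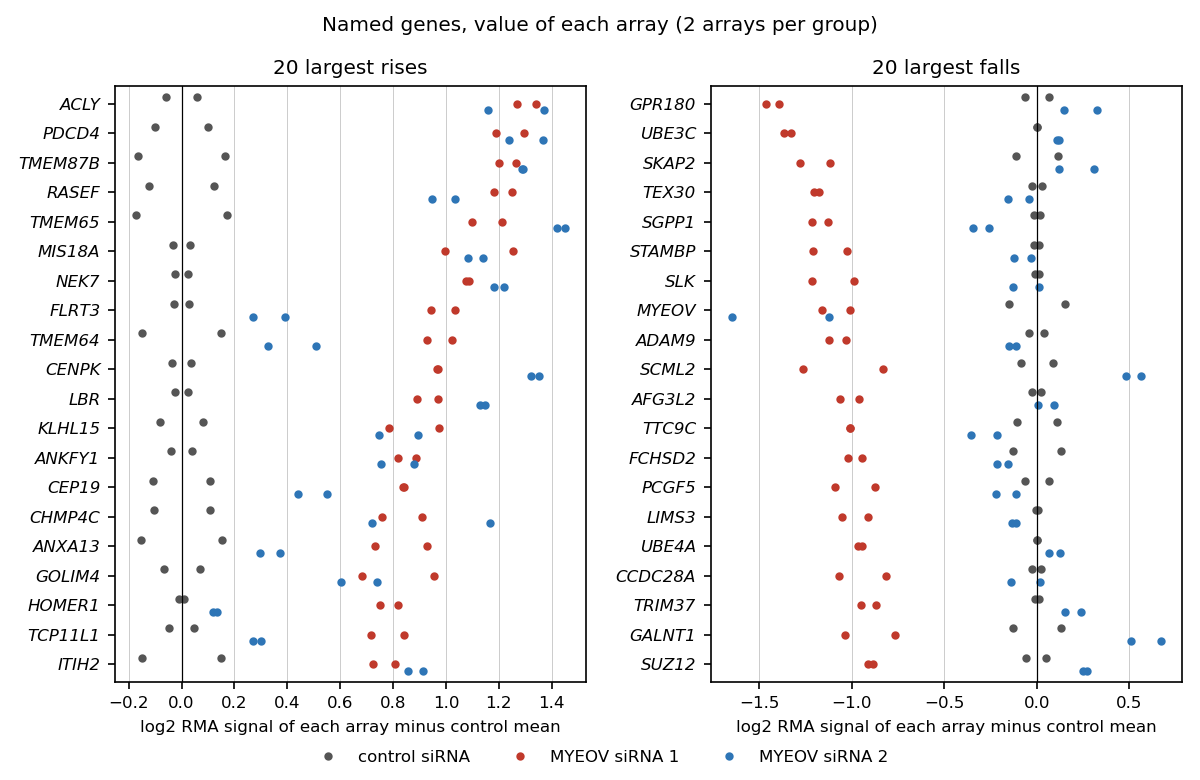
Dots are single arrays, 2 per group, for the 20 largest rises (left) and the 20 largest falls (right); the x axis is the array's log2 RMA signal minus the mean of the 2 control arrays. All siRNA 1 arrays (red) lie beyond both controls (grey), and in the right panel the siRNA 2 arrays (blue) of every gene but MYEOV lie nearer to the controls or above them.

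More of the falls than of the rises also differed between the siRNAs when these were compared directly. Both siRNAs were compared with the same 2 control arrays, so the contrast of siRNA 1 with siRNA 2, which uses no control array, is given. Genes called with siRNA 1 were chosen on the same siRNA 1 arrays that enter this contrast, which favours a difference. The counts among them, here and below, are therefore descriptions. Limma called 681 genes between the siRNAs (9.15% of 7442), 5.37% higher and 3.78% lower with siRNA 1. Of the 177 genes lower with siRNA 1, 126 were also lower than with siRNA 2, 2 were higher and 49 were not called between the siRNAs. Of the 170 genes higher with siRNA 1, 48 were also higher than with siRNA 2, 4 were lower and 118 were not called. Among the 20 largest falls 19 differed between the siRNAs, with MYEOV the exception (difference 0.30 ± 0.18, limma adjusted p = 0.370). Among the 20 largest rises 6 differed: FLRT3, TMEM64, ANXA13, HOMER1 and TCP11L1 were higher with siRNA 1 and CENPK was higher with siRNA 2. Genes that do not differ here are not shown to respond alike, since the SE of such a difference had a median of 0.0831 over all genes.

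To describe the response by function, the tested genes were sorted into 83 lists by symbol and family, which took in 4108 of the 7442 genes. Of the 347 called genes 210 stood in a list, 102 higher and 108 lower, and 137 in none. The share called was 5.11% inside the lists and 4.11% outside them. Signalling lists had the highest share of calls by theme, 6.89% of 639 genes, followed by lipid (6.67% of 165), cytoskeleton and adhesion (6.15% of 374) and chromatin genes (6.07% of 280). RNA and ribosome genes had 2.81% of 499, and metabolism 2.39% of 377. Every list count below is read against the 4.66% of all genes, with 2.28% higher and 2.38% lower.

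**Figure D3:**
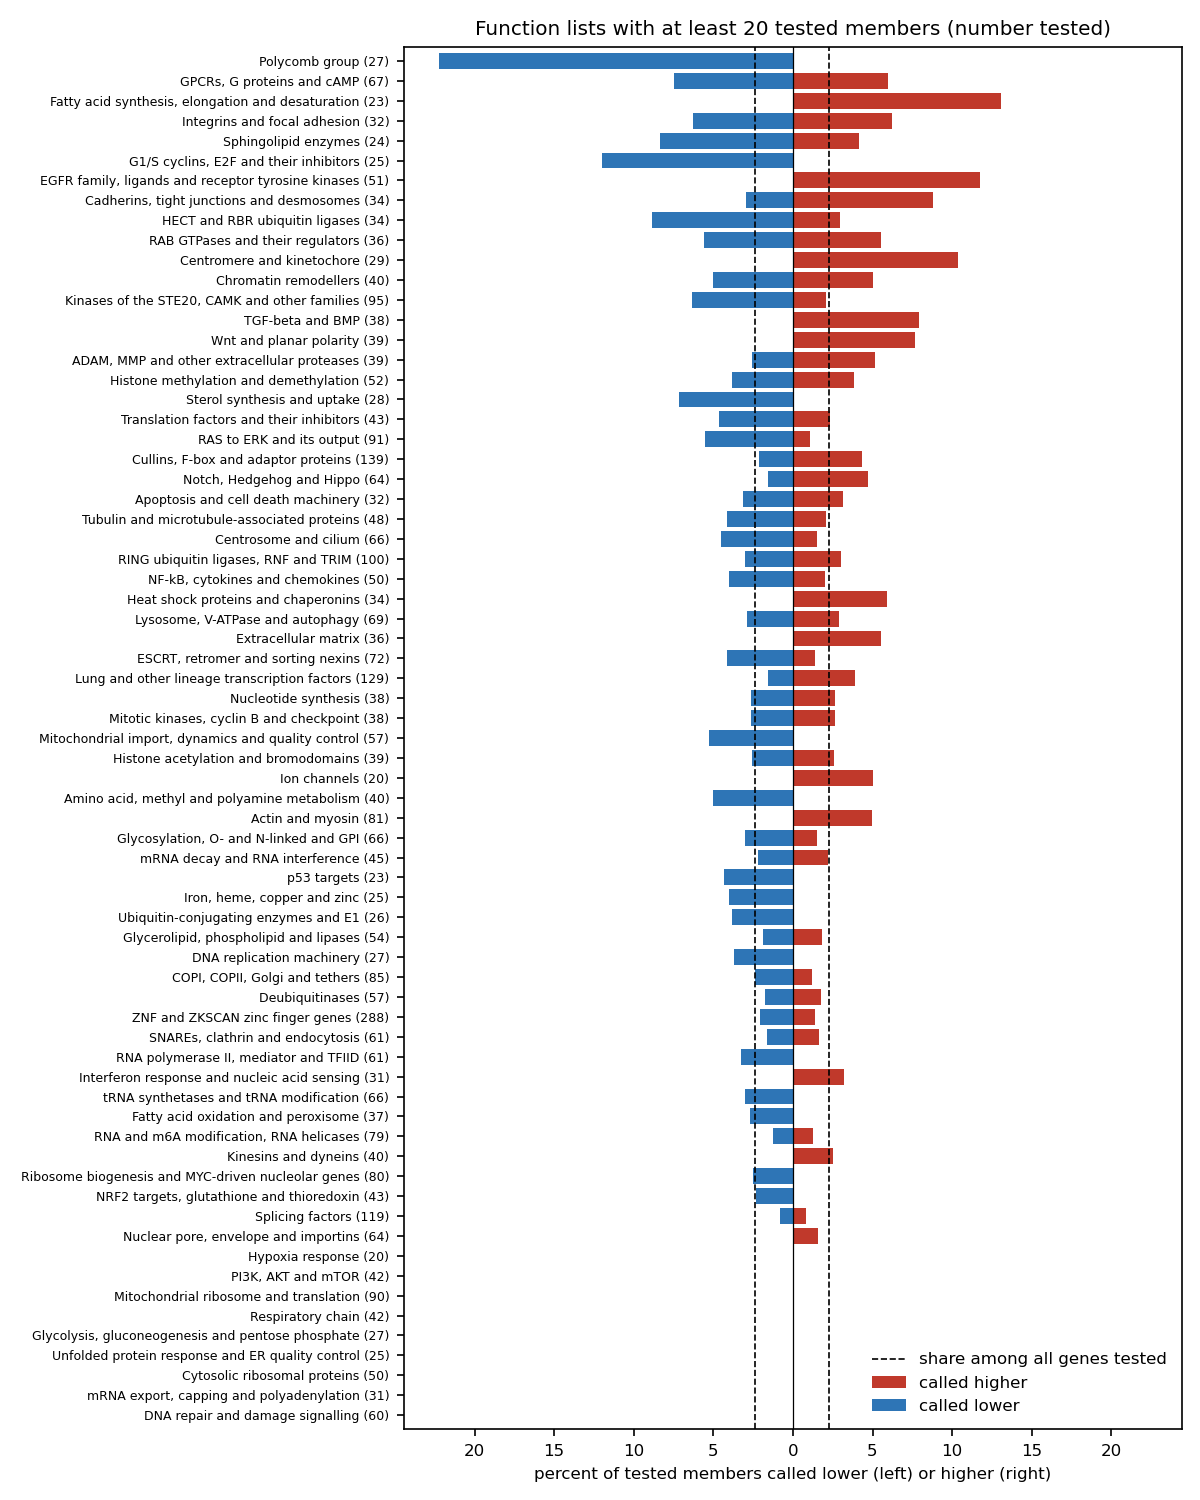
Bars give the percent of each list's tested members called higher (red, right) or lower (blue, left) with siRNA 1, for the lists reported here with at least 20 tested members other than the mixed list of transmembrane genes, with that number in brackets; dashed lines mark the shares of all genes, 2.28% and 2.38%. Polycomb genes reach 22.2% lower, fatty acid synthesis genes 13% higher, and lists such as DNA repair and the respiratory chain have no bar.

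Polycomb group genes had the highest share of calls among lists with at least 20 tested members, and all calls were lower. Polycomb proteins keep genes silent through 2 kinds of complex, PRC2, which methylates histone H3, and PRC1, which ubiquitinates histone H2A. Of 27 members tested, 6 fell and 0 rose, 22.2% against the 4.66% of all genes. SUZ12, a core PRC2 subunit, read 10.09 and 10.20 in the controls and 9.24 and 9.26 with siRNA 1, a fall of 0.90 ± 0.07 (limma adjusted p = 0.00148). EZH2, its catalytic partner, read 8.22 and 8.35 against 7.88 and 7.95, a fall of 0.37 ± 0.08 (adjusted p = 0.0449). Both PRC2 subunits were below control in both arrays, with the larger step in SUZ12.

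PCGF5, a ring-finger subunit that defines a variant PRC1, read 8.93 and 9.06 in the controls and 8.12 and 7.91 with siRNA 1 (-0.98 ± 0.10, limma adjusted p = 0.00366). SCML2, a PRC1-associated protein, read 8.21 and 8.04 against 7.29 and 6.86 (-1.05 ± 0.14, limma adjusted p = 0.0114). Its relative SCML1 read 6.70 and 6.71 against 6.01 and 5.91 (-0.75 ± 0.08), and L3MBTL2, a subunit of another variant PRC1, 7.10 and 6.91 against 6.42 and 6.34 (-0.63 ± 0.09). No siRNA 1 array of these genes reached its control range. The other 21 members lay between -0.23 and 0.29, among them the PRC2 partner MTF2 (-0.23, limma adjusted p = 0.368), EZH1 and the PRC1 subunits RING1, PHC3 and PCGF1, so the median of the list was -0.0312 and ran from -0.0631 to 0.0107 over the alternatives. Of the 6, 5 were also lower than with siRNA 2, by 1.57 ± 0.14 for SCML2, 1.29 ± 0.08 for SCML1, 1.16 ± 0.07 for SUZ12, 0.82 ± 0.10 for PCGF5 and 0.37 ± 0.08 for EZH2, and L3MBTL2 was not called (-0.29, limma adjusted p = 0.104). Leaving out the first control or the second siRNA 1 array left 3 of the members called lower, leaving out either of the other arrays left 4, and testing dim genes too left 2.

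**Figure D4:**
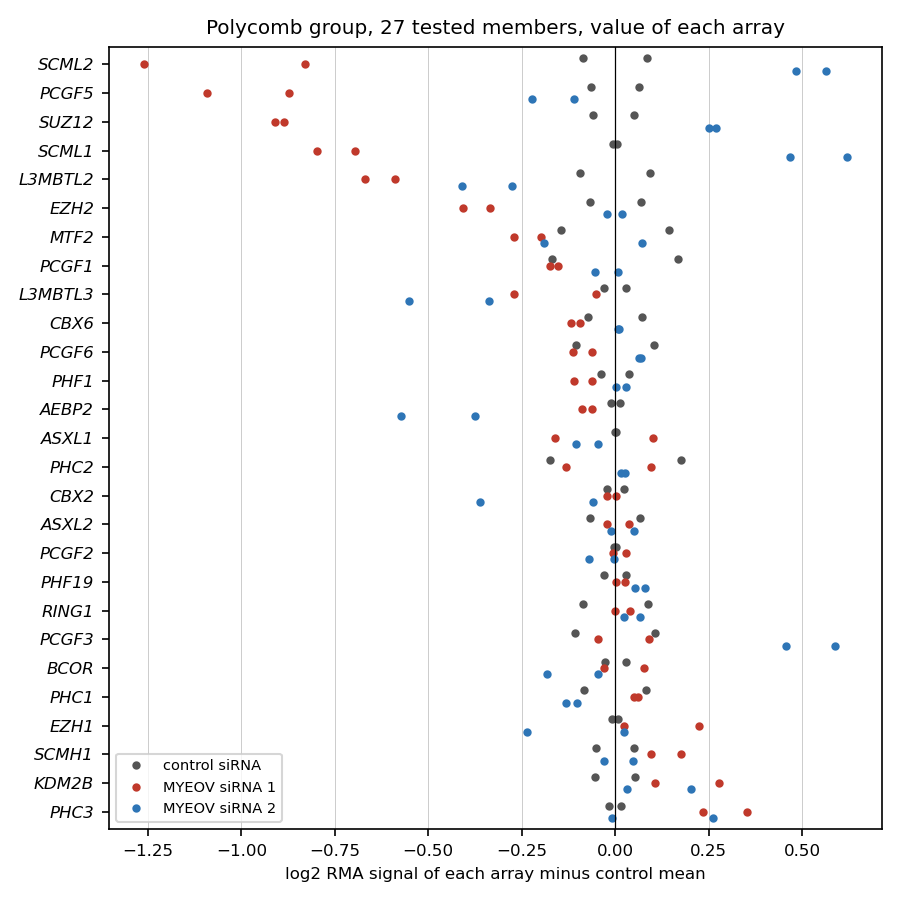
Dots are single arrays of the 27 tested Polycomb group genes, ordered by the change with siRNA 1; the x axis is the log2 RMA signal minus the mean of the 2 control arrays. The 6 called genes at the top have both siRNA 1 arrays (red) below both controls (grey), as had 24.4% of all genes tested. Some of the rest, such as MTF2 and CBX6, lie below both controls too, and others, such as EZH1 and PHC3, above. The changes of the rest lay between -0.23 and 0.29.

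The promoters of these genes are shown because 6 members of one complex family fell together. Each holds 250 bases before and 50 bases after the transcription start, from RefSeq GRCh38.p14, and capitals mark the CCAAT box, searched as the letters CCAAT on both strands, so that ATTGG marks it on the other strand. Of the 6 promoters 5 hold at least 1 match, EZH2, L3MBTL2, PCGF5, SCML1 and SUZ12, and SCML2 holds none. Promoters of the Polycomb genes that were not called were not counted separately. The other 4 motifs searched, named below, are in 0 of the 6. Over the 6021 tested genes with a promoter in the table the share was 37.2%, over the genes called higher 37.9% and over those called lower 33.1%, and no test was made. EZH2 lies at chr7:148884242-148884541 on the minus strand, SUZ12 at chr17:31936757-31937056 on the plus strand and SCML2 at chrX:18354639-18354938 on the minus strand.
EZH2: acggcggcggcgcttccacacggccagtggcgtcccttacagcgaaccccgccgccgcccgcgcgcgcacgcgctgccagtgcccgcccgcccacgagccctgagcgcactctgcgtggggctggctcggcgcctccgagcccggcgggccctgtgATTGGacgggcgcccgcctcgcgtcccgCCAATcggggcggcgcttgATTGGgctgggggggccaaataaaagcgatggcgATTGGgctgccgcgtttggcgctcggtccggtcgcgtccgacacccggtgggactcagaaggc
SUZ12: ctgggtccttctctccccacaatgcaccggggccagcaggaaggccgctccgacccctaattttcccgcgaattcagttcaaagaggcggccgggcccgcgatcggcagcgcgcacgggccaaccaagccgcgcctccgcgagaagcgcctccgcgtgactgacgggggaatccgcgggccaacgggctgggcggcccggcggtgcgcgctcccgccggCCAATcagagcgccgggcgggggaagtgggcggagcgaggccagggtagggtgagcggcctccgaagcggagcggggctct
SCML2: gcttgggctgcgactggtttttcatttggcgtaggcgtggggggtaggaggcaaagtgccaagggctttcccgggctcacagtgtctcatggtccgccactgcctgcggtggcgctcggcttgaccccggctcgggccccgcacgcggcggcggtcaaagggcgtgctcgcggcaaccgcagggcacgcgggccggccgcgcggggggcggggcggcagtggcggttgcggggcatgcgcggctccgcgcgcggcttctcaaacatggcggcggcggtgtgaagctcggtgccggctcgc

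Other promoter letters were counted in the same way. The ETS core CCGGAAG, searched on both strands, stood in 20.8% of the 6021 promoters, in 10.7% of the 140 of genes called higher and in 19.3% of the 145 of genes called lower. The E2F core TTCGCGC stood in 3.92%, 1.43% and 3.45%, the E-box CACGTG in 10.5%, 8.57% and 8.97%, and TATAAA in 4.90%, 4.29% and 3.45%. These shares describe letters and not binding.

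Other chromatin genes moved in both directions. NSD2, which dimethylates lysine 36 of histone H3, fell from 7.60 and 7.76 to 6.83 and 6.80 (-0.87 ± 0.08, limma adjusted p = 0.00235). KMT5A, the monomethylase of histone H4, fell from 7.57 and 7.42 to 6.79 and 6.72 (-0.74 ± 0.08). The demethylase PHF2 and the methylase KMT2C rose by 0.48 and 0.36, so that 2 of 52 histone methylation genes were higher and 2 lower (7.69% called, median -0.00501). The acetyltransferase KAT2B fell from 8.24 and 8.21 to 7.56 and 7.45 (-0.72 ± 0.08), while the coactivator NCOA2 rose by 0.46. Among 40 remodelling and DNA methylation genes ARID5B (0.57) and INO80D (0.36) rose and CHD7 (-0.40) and ZBTB24 (-0.39) fell, and DNMT3B, a DNA methylase, had 0.67 but missed the threshold (limma adjusted p = 0.0550). With any 1 of the 4 arrays left out, none of these 4 remodelling genes was called by limma, and with all rows of a gene averaged INO80D had 0.0806 (limma adjusted p = 0.579).

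Cell cycle genes were called in both directions. Of 25 G1/S genes 3 fell and 0 rose (12%, median -0.0808). CDC25A, the phosphatase that activates CDK2, read 8.12 on both control arrays and 7.42 on both siRNA 1 arrays (-0.70 ± 0.07, limma adjusted p = 0.0043). TFDP1, the partner of E2F factors, fell by 0.50 and LIN54, a DNA-binding subunit of the DREAM complex, by 0.38. E2F1 had 0.27 (limma adjusted p = 0.0716), CDK6 0.31 (0.0707) and E2F3 -0.27 (0.129), so the list also held changes the other way. With the filter raised to the 75th percentile 2 of 17 were called higher and 2 lower, beside 205 and 220 of all 3721 genes. A trended, robust prior gave 1 of 25 higher and 3 lower, beside 260 and 241 of all 7442. Testing dim genes too left 0 of the 25 called. Leaving out the second control array or either siRNA 1 array left 1 of the 25 called.

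Of 29 centromere and kinetochore genes 3 rose and 0 fell (10.3%, median -0.0112), while at an unadjusted p under 0.05 3 were higher and 7 lower. MIS18A, which helps load the centromeric histone CENP-A, went from 6.89 and 6.95 to 7.92 and 8.17 (1.13 ± 0.10, limma adjusted p = 0.00207). CENPK, of the network that holds kinetochores to CENP-A, went from 6.90 and 6.83 to 7.83 on both arrays (0.97 ± 0.07), and its network partner CENPQ went from 6.59 and 6.74 to 7.16 and 7.13 (0.48 ± 0.09). The outer kinetochore genes were not called: NDC80 had -0.33 (limma adjusted p = 0.169) and SKA3 -0.32 (0.140). Of 38 mitotic kinase and checkpoint genes NEK7 rose and CDCA2, a phosphatase partner on mitotic chromosomes, fell by 0.43, and PLK1, the bright master kinase of mitosis, had -0.09. MIS18A, CENPK and NEK7 stayed called in every alternative run.

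Replication and ribosome biogenesis genes had medians slightly below control, and how many were called depended on the processing. Of 27 replication genes 1 was called, MCM8, a helicase of meiotic and repair recombination, at -0.57 (limma adjusted p = 0.0188). The list's median change was -0.13 against -0.00271 for all genes, it ran from -0.179 to -0.0296 over the alternatives, and 5 of its 27 members were above 0. Without control replicate 2 or either siRNA 1 array MCM8 was not called. Of 80 ribosome biogenesis genes WDR12 and WDR3, assembly factors of the large and the small subunit, fell by 0.78 ± 0.08 and 0.64 ± 0.09, which is 2.50% called. Their signals were 8.18 and 8.14 against 7.44 and 7.32 for WDR12, and 8.88 and 9.08 against 8.42 and 8.28 for WDR3. At an unadjusted p under 0.05, 20 of the 80 were lower and 1 higher, where 9.39% of all genes were lower and 9.82% higher. The median change was -0.117, and 10 of 80 were above 0. DDX21, the brightest member, had 0.19, and LYAR, a nucleolar protein, -0.40 (limma adjusted p = 0.0990). With the expression filter raised to the 75th percentile 11 of 68 ribosome biogenesis and 4 of 26 replication genes were called lower. Over all genes that run called 220 of 3721 lower. A trended, robust prior called 7 of 80 and 3 of 27 lower, and 241 of all 7442. Testing dim genes too left 0 genes of either list called. The median of the ribosome biogenesis list lay between -0.141 and -0.0989 over all alternatives run.

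In the neighbouring RNA lists calls were scattered and medians lay nearer to 0. Splicing factors had 119 tested members, with RBM47 called at 0.46 and PRPF3 at -0.44 (1.68%), a median of -0.0549 and 29 members above 0. Cytosolic ribosomal proteins had 0 of 50 called by limma, with 1 higher and 4 lower at an unadjusted p under 0.05, and a median of -0.0403. Among 43 translation factors PDCD4 rose, and EIF4EBP2 (-0.55), which holds the cap-binding factor eIF4E, and DENR (-0.37), a reinitiation factor, fell. The tRNA modification enzymes YRDC (-0.81) and TYW3 (-0.53) fell among 66 tRNA genes, and the decapping factor DCP1A (-0.63) fell and the repressor PUM2 (0.57) rose among 45 mRNA decay and RNA interference genes. Among transcription machinery genes MED8 (-0.74) and CDK19 (-0.32) of the mediator and POLR3G (-0.50) of RNA polymerase III fell.

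**Figure D5:**
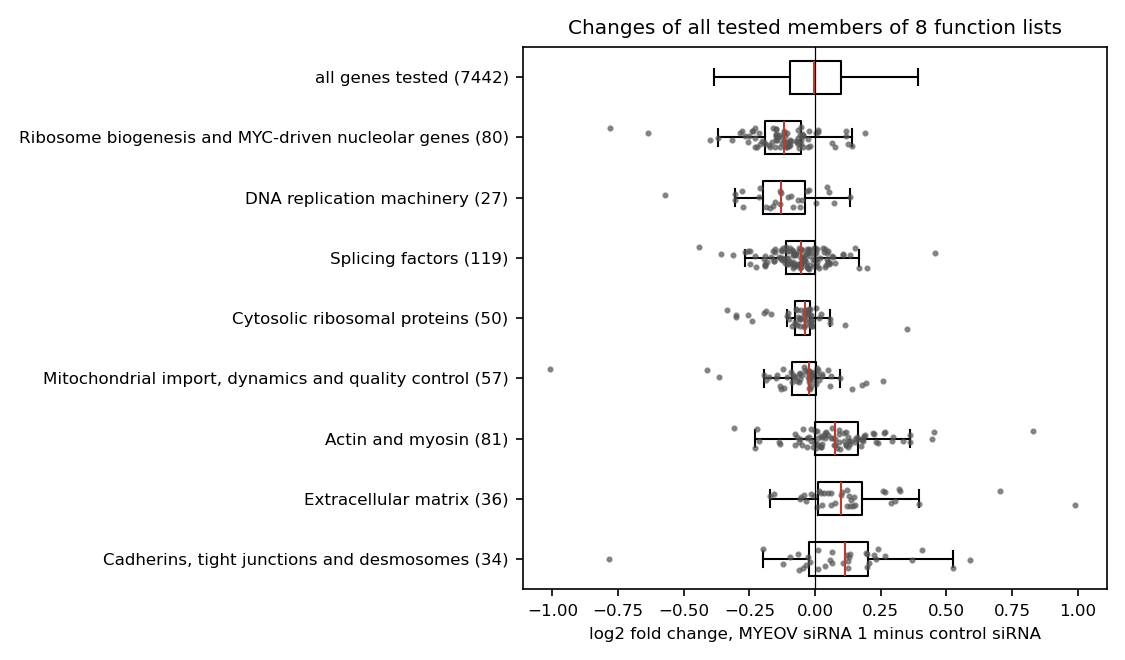
Boxes give the median (red), the quartiles and whiskers of 1.5 times its width for the log2 fold changes of all tested members of 8 lists, with single genes as dots, beside all 7442 genes (no dots). Ribosome biogenesis and replication genes centre at -0.117 and -0.13, and extracellular matrix and junction genes near 0.1.

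Ubiquitin genes were called in both directions, and several of the deepest falls were among them. The share called was 6% of RING ligases, 6.47% of cullin partners, 3.51% of deubiquitinases and 3.85% of E1 and E2 enzymes. Those shares are near the 4.66% of all genes. Of 34 HECT and RBR ligases 3 fell, UBE3C, RNF14 (-0.47) and ITCH (-0.39), and HERC6 rose by 0.32 (11.8%, median -0.0254). Of 100 RING ligases TRIM37, TRIM33 (-0.61), which restrains SMAD4, and RNF14 fell, and RNF43 (0.47), RNF11 (0.43) and SH3RF2 (0.32) rose. Among 139 cullin partners 6 rose, with KLHL15, KLHL4 (0.67), FBXO7 (0.65), SPOPL (0.46), the anaphase-promoting subunit CDC23 (0.43) and KLHL20 (0.40), and 3 fell, DCAF12 (-0.61), SOCS6 (-0.43) and FBXO22 (-0.40). FBXO7, which serves mitophagy, read 8.41 and 8.36 in the controls and 9.07 and 8.99 with siRNA 1. Of 57 deubiquitinases STAMBP fell and USP14, which sits on the proteasome, rose by 0.49. The E1 enzyme UBA6 fell by 0.32, the only called gene of 26 E1 and E2 enzymes. With single arrays left out UBE3C stayed called while RNF14, ITCH and HERC6 did not.

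Membrane traffic genes moved singly. In the ESCRT machinery, which cuts membrane necks, CHMP1B went from 9.28 and 9.24 to 8.56 and 8.33 (-0.82 ± 0.09) and the ATPase VPS4B from 8.70 and 8.68 to 8.30 and 8.13 (-0.48 ± 0.08), while CHMP4C went from 6.61 and 6.39 to 7.41 and 7.26. Together with LEPROTL1 (-0.38), 3 of 72 members of this list fell and 1 rose (5.56%). Subunits of one machine were thus called in opposite directions. Of 36 RAB genes RASEF and ANKFY1 rose and RUFY2 (-0.72) and EVI5 (-0.57), a RAB GTPase-activating protein, fell. Of 85 Golgi genes GOPC rose by 0.51 and TRAPPC10 and ARFGEF1 fell by 0.36 and 0.34, and of 61 endocytosis genes EHD3 rose by 0.45 and the clathrin adaptor PICALM fell by 0.42. In the lysosome list the protease CTSS went from 6.75 and 7.0 to 7.55 and 7.58 (0.69 ± 0.10), GM2A rose by 0.45, and HPS5 and MAP1LC3B2 fell by 0.38 and 0.36. MAP1LC3B2 is nearly identical to MAP1LC3B, so which copy was read is uncertain.

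In the lipid lists single enzymes changed. The 3 called of 23 fatty acid synthesis genes rose (13%, median 0.0663): ACLY, the elongase ELOVL7, from 7.25 on both arrays to 7.73 and 7.62 (0.43 ± 0.07), and the elongase ELOVL5, from 8.18 and 8.13 to 8.49 and 8.50 (0.35 ± 0.07). The bright desaturase SCD had 0.11 and was not called. ACLY alone stayed called when any of the 4 arrays was left out. The 2 called of 28 sterol genes fell: the isoprenoid enzyme IDI1, from 7.36 and 7.65 to 6.97 and 6.93 (-0.56 ± 0.10), and the sterol carrier STARD4, from 7.59 and 7.69 to 7.19 and 7.09 (-0.51 ± 0.08). The median of the sterol list was 0.0929, and its enzymes MSMO1 and SQLE, at 0.12 and 0.11, were not called, so its 2 called genes went against the list's median. Without the second control array or either siRNA 1 array IDI1 was not called, and without any 1 of the 4 arrays STARD4 was not. Among 24 sphingolipid genes SGPP1 and the ceramidase ACER2 (6.53 and 6.37 against 5.94 and 5.68, -0.64 ± 0.11) fell, and the sphingomyelin synthase SGMS2 rose by 0.42. Of the phospholipid genes DDHD1 fell by 0.54 and ABHD13 rose by 0.37.

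Metabolic and mitochondrial genes had few calls. Limma called 0 of 42 respiratory chain genes (1 higher and 0 lower at an unadjusted p under 0.05), 0 of 90 mitochondrial translation genes (2 and 5) and 0 of 27 glycolysis and pentose phosphate genes (3 and 3). Of 57 mitochondrial import and quality control genes AFG3L2, TIMM8A (-0.41) and TOMM20 (-0.36), parts of the import machinery, fell. OGDH, of the TCA cycle, rose by 0.34. PPAT, the first committed enzyme of purine synthesis, fell by 0.61, and ADA, which deaminates adenosine, rose by 0.50. DBT (-0.52), of branched-chain amino acid breakdown, and DDAH1 (-0.50), which clears methylated arginine, fell among 40 amino acid genes. FAR1 (-0.42), which makes fatty alcohols in peroxisomes, was the called gene of 37 in its list.

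HMOX1, the heme-degrading enzyme and a target of NRF2, read 10.77 and 10.59 in the controls and 10.26 and 10.13 with siRNA 1 (-0.49 ± 0.10, limma adjusted p = 0.0394). It was the called gene of 43 antioxidant genes (2.33%, median -0.0510), of which 14 were above 0. HMOX1 lost the call with quantile normalization, with dim genes tested too and with any 1 array left out. Its change ran from -0.58 to -0.399 over the alternatives. SRXN1, another NRF2 target, had -0.30 (limma adjusted p = 0.0554) and the bright TXN -0.16. A549 cells carry an inactivating KEAP1 mutation, so NRF2 is constantly active in this line.

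Several growth factor receptor genes and their partners rose. Of 51 receptor tyrosine kinases, their ligands and adaptors 6 rose and 0 fell (11.8%, median 0.0692), and 36 of the 51 changes were above 0. ROR1, a receptor for Wnt ligands, went from 8.21 and 8.12 to 8.88 and 8.76 (0.65 ± 0.10, limma adjusted p = 0.0191). The ERBB4 ligand NRG4 went from 6.92 and 7.15 to 7.46 and 7.69 (0.54 ± 0.11), and the adaptor GRB14 from 8.20 and 8.30 to 8.64 and 8.73 (0.44 ± 0.08). In these genes the gap between the groups was larger than between replicates, least clearly in NRG4. The adaptor SHC1 went from 9.83 and 9.72 to 10.18 on both arrays, the collagen receptor DDR1 from 7.45 and 7.32 to 7.74 and 7.72, and MET, the receptor for hepatocyte growth factor, from 10.57 and 10.56 to 10.91 on both. EGFR read 10.81 and 10.57 against 10.46 and 10.24, a change of -0.34 ± 0.11 that missed the threshold (limma adjusted p = 0.159). Of the 6, NRG4 and DDR1 were also higher than with siRNA 2, by 0.49 ± 0.11 and 0.62 ± 0.07. None of the 6 was called by limma without any 1 of the 4 arrays, nor with dim genes tested too, and 2 were called with the control and siRNA 1 arrays alone.

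Downstream signalling lists had calls in each direction. Of 91 RAS to ERK genes RAPGEF2, an activator of RAP1, rose by 0.47, and RASA2 (-0.65), which turns RAS off, the kinases MAP3K21 (-0.60), MAP3K4 (-0.52) and MAP3K7 (-0.33), and the phosphatase DUSP3 (-0.52) fell. The ERK-responsive transcription factors FOSL1, at -0.64, and ETS1, at -0.52, had a wide spread and missed the threshold (limma adjusted p = 0.134 and 0.126). Of 42 PI3K, AKT and mTOR genes limma called 0 (5 higher and 4 lower at an unadjusted p under 0.05). Of 95 kinases of the STE20, CAMK and other families SLK, STK39 (-0.69), MARK3 (-0.69), HIPK3 (-0.43), PRKD3 (-0.35) and CDK19 fell, and LRRK2 (0.52) and SIK1 (0.45) rose (8.42%). Leaving out any 1 of the 4 arrays left 2 or 3 of the falls called and 0 of the rises. MARK3, a polarity kinase, read 9.42 and 9.41 against 8.71 and 8.73 and stayed called in every alternative run.

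Among developmental pathways the calls were mostly higher. The BMP decoy receptor BAMBI (0.48), the effector SMAD5 (0.51) and the ligand BMP6 (0.51) rose among 38 TGF-beta and BMP genes, and 0 fell (7.89%). At an unadjusted p under 0.05, 10 of the 38 were higher and 0 lower, beside 9.82% and 9.39% of all genes. ROR1, the receptor FZD6 (0.42) and RNF43, which removes Wnt receptors, rose among 39 Wnt genes. VGLL3 (0.71) and TEAD2 (0.53), partners in TEAD-driven transcription, and TAOK3 (0.35) rose and WTIP (-0.52) fell among 64 Notch, Hedgehog and Hippo genes. Leaving out the second control array or either siRNA 1 array left 0 of the TGF-beta and BMP genes called by limma, and leaving out the first control array left 1.

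The list of G protein and cAMP genes also took in other membrane proteins and prostaglandin genes, such as GPR180, TMEM87B and PTGES. It had 9 calls of 67 (13.4%, median 0.0236), 4 higher and 5 lower. ADGRG2, an adhesion receptor, read 7.36 and 7.34 in the controls and 7.89 and 7.92 with siRNA 1 (0.56 ± 0.06). The prostaglandin E synthase PTGES (0.40), the thrombin receptor F2R (0.38) and TMEM87B rose with it. GPR180, the cAMP phosphodiesterases PDE7A (-0.55) and PDE8A (-0.40), the protein kinase A anchor AKAP11 (-0.43) and GPR137B (-0.41) fell. Of the 9, GPR180 and TMEM87B stayed called in every alternative run, and the calls of the others depended on single arrays. PTGS2, the prostaglandin synthase upstream of PTGES, had 0.13 and overlapping groups. In the cytokine and innate immune lists the calls were IL17RD (0.66), an inhibitor of growth factor signalling, IFNGR2 (-0.48), a chain of the interferon gamma receptor, MAP3K7 and, among 31 interferon response genes, HERC6.

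Actin and extracellular matrix genes had more changes above than below 0, which the microtubule and keratin lists did not. Of 81 actin and myosin genes 4 rose and 0 fell: ANXA13, LIMA1 (0.45), which bundles actin, CTTNBP2NL (0.36) and NCKAP1 (0.36), of the WAVE complex. The share called, 4.94%, is near that of all genes, but 60 of the 81 changes were above 0, with a median of 0.0758. In the extracellular matrix list FLRT3 and MATN3, a cartilage matrix protein, rose, the latter from 5.84 and 5.92 to 6.56 and 6.61 (0.70 ± 0.08). Its median was 0.0998 and 28 of 36 changes were above 0, with THBS1 and TNC at 0.32 each and not called (limma adjusted p = 0.0955 and 0.169). The focal adhesion protein VCL, bright at 10.75 and 10.82 in the controls and 11.12 and 11.20 with siRNA 1, and TSPAN6 (0.35) rose, against the falls of SKAP2 and LIMS3, among 32 integrin and adhesion genes.

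Of 34 junction genes 3 rose and 1 fell (11.8%, median 0.113). CRB3, of the apical polarity complex, went from 6.01 and 5.76 to 6.41 and 6.54 (0.59 ± 0.11), the desmosomal plakin PPL from 5.65 and 5.71 to 6.27 and 6.14 (0.53 ± 0.09), and the tight junction protein TJP3 from 5.47 and 5.42 to 5.93 and 5.78 (0.41 ± 0.09). The desmosomal cadherin DSC2 went from 6.41 and 6.84 down to 5.94 and 5.74 (-0.78 ± 0.15). JUP, plakoglobin, had 0.37 (limma adjusted p = 0.0569). Desmosomal genes were therefore called in opposite directions. The call of DSC2 depended on single arrays, and its change ran from -0.995 to -0.573 over the alternatives. None of the 3 rises was called by limma without any 1 of the 4 arrays. Of 48 microtubule genes CLIP1 rose by 0.60 and MAP1B and the tubulin ligase TTL fell by 0.72 and 0.60. Limma called 0 of 13 keratin and intermediate filament genes (1 higher and 1 lower at an unadjusted p under 0.05) and 0 of 13 mesenchymal markers (0 at that level).

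Extracellular proteases had ADAM9 as the called fall of 39, with the membrane metalloprotease MMP15 (0.39) and the proprotein convertase FURIN (0.38) higher. Its relative ADAM17 had 0.09 and was not called. ADAM9 was thus the called member of its family, in both arrays about 1 below control.

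Transcription factors changed singly. KLF3 (0.65), KLF2 (0.63), SP4 (0.46), FOXJ1 (0.35) and TEAD2 rose and MLX (-0.79), the partner of the glucose-sensing factor MLXIPL, and PURB (-0.35) fell among 129 lineage and other factors. MLX read 9.61 and 9.44 in the controls and 8.77 and 8.71 with siRNA 1. Of 288 zinc finger genes 4 rose and 6 fell (3.47%), with ZNF254 (0.57) and ZBTB41 (-0.56) the largest. Stress programmes were largely without calls: limma called 0 of 25 unfolded protein response genes (0 at an unadjusted p under 0.05), 0 of 17 ATF4 genes (1 lower), 0 of 20 hypoxia genes (1 higher) and 0 of 60 DNA repair genes (3 higher and 11 lower). Of 23 p53 targets FBXO22 fell. The heat shock protein HSPB1 rose from 11.55 and 11.39 to 11.94 and 12.03 (0.52 ± 0.08), and the cochaperone BAG2 rose by 0.31. Both calls depended on single arrays. Of 32 cell death genes PDCD4 rose and APAF1, the core of the apoptosome, fell by 0.49.

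The largest list mixed TMEM and other genes of loosely known function, with 12 higher and 11 lower of 320 (7.19%, median 0.0234). It was gathered by symbol, so its share is not that of membrane proteins alone. Beside TMEM65, TMEM87B and TMEM64 its called genes included C5orf15, which fell by 1.32 ± 0.07, and C5orf24, which rose by 0.86 ± 0.08. LRRC58, a leucine-rich repeat protein, fell by 0.88 ± 0.07. C5orf15, C5orf24 and LRRC58 stayed called in every alternative run.

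Besides MIR31HG the ranking left out 17 called genes with non-coding or open reading frame symbols, and those given here were picked after their values were seen. The long non-coding RNA LINC00294 rose from 7.33 and 7.60 to 8.62 and 8.65 (1.17 ± 0.10, limma adjusted p = 0.00215). The hairpin genes MIR4740, MIR3936, MIR4469 and MIR346 were called higher, by 0.74, 0.56, 0.52 and 0.40, and MIR4689 and MIR2909 lower, by -0.38 and -0.35. These rows read transcripts at the hairpin genes, and mature microRNAs were not measured. TERT, the telomerase catalytic subunit, stood in no list and is named after its value was seen. It read 5.98 on both control arrays and 5.63 and 5.61 with siRNA 1, a fall of 0.35 ± 0.06 close to the expression filter. Called genes were spread over the chromosomes, from 1.87% of 534 genes on chromosome 19 to 8.77% of 342 on chromosome 5 and 10.6% of 113 on chromosome 18.

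The arrays matched an epithelial line, with limits. The simple epithelial keratin KRT18 read between 11.98 and 12.09 in the 4 arrays, and of 17 lung adenocarcinoma and epithelial markers 11 had a row, 6 were tested and 0 were called by limma. The lung lineage markers NKX2-1, SFTPB, SFTPC and NAPSA were below the expression filter, so the data do not show alveolar identity. The epithelial marker CLDN4 was below it too, at 5.03 and 5.05 in the controls and 4.65 and 4.53 with siRNA 1. The fibroblast and endothelial markers with a row, 3 and 4, were all below the filter. Their summed log2 signal was 5.15 to 5.75 in the controls and 5.57 to 5.83 with siRNA 1 for fibroblasts, and 6.18 to 6.33 and 6.08 to 6.44 for endothelium. Of the leukocyte markers CD68, which many cell lines express, was above the filter and not called. Of the plasma cell markers CD38 rose from 6.50 and 6.63 to 6.98 and 7.12 (0.49 ± 0.10, limma adjusted p = 0.0469), while SDC1 had 0.03 and MZB1 was below the filter.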

How the data were processed

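Total RNA of 6 A549 cultures, 2 per group, was measured on Affymetrix arrays. The deposited values are log2 signals, and the submitters' processing notes name RMA for them without a version. The table has 53617 rows, of which 16098 carry 1 gene symbol and 37519 none. Symbols come from the platform annotation, and for 779 genes with several rows the one with the highest mean was kept. Genes at or above the median of all genes' mean signals were tested with limma 3.58.1 (R 4.3.3) on all 6 arrays, with 3 residual degrees of freedom and Benjamini-Hochberg adjustment over 7442 genes. An exact permutation test of 2 against 2 arrays cannot go below p = 0.333 and was not used. The fit was tested on simulated data. Tables and figures used Python 3.11.15, pandas 2.3.3 and matplotlib 3.10.9.

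The comparison, the gene lists and the named genes were chosen with earlier results of these data known. Named genes are MYEOV, the 20 largest called rises and falls without non-coding symbols or unresolved open reading frames, the called members of each list with up to 3 others, and defining markers. The patterns of the microtubule and growth factor lists were corrected after their members were seen, since they took in MAP kinases, TTC genes and RNA-binding IGF2BP proteins. Promoters and microRNAs were matched by symbol or name to RefSeq tables of GRCh38.p14. Array number limits the precision, and depth does not apply to arrays. Alternatives were the filter, the choice of rows, normalization, the arrays fitted, the replicate block, the prior, array weights and leaving out each array. The results of 1 list are not reported here.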

Additional observations from a re-analysis of the deposited data

Results flagged for a closer look

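Called genes went in opposite directions under the 2 siRNAs in 11 cases, each tested directly between the siRNAs with limma and Benjamini-Hochberg adjustment. All share the 2 control arrays, and the genes were singled out after their values were seen. Several of the siRNA 1 calls, among them those of DSC2, GALNT1 and HMOX1, depended on single arrays. Lower with siRNA 1 and higher with siRNA 2 were DSC2, with a difference (siRNA 1 minus siRNA 2) of -1.61, GALNT1 (-1.49), LIN7C (-1.33), SCML1 (-1.29), HMOX1 (-1.01) and ZBTB41 (-0.843). LIN7C, a polarity scaffold, read 8.95 and 8.97 in the controls, 8.22 and 8.28 with siRNA 1 and 9.54 and 9.62 with siRNA 2. GALNT1 read 9.51 and 9.77, 8.61 and 8.88, and 10.15 and 10.31 in the same order.

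Higher with siRNA 1 and lower with siRNA 2 were MMD (0.99), TMEM181 (0.919), C1orf116 (0.787), CFAP418 (0.747) and SPIN1 (0.726). SPIN1, a reader of histone methylation, read 9.26 and 9.21 in the controls, 9.58 and 9.61 with siRNA 1 and 8.81 and 8.92 with siRNA 2. MMD read 7.94 and 8.08, 8.42 and 8.56, and 7.41 and 7.59.

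Outside the named genes, 8516 rows without a gene symbol reached the same mean signal. Limma called 6 of them with siRNA 1 against control, 2 higher and 4 lower, which is 0.0705%, and 1133 had an unadjusted p under 0.05.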

How the results depend on the processing

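The count of 347 called genes fell to 39 with no filter on dim genes (17 higher, 22 lower), to between 58 and 97 with a control or siRNA 1 array left out, and to 235 with either siRNA 2 array left out. Over all arrays left out in turn the higher genes numbered 25 to 108 and the lower 33 to 127. With only the arrays of the 2 groups compared 108 were higher, and with a trended, robust prior 260. Between the siRNAs 681 calls became 195 with no filter and 226 to 618 with an array left out. The MYEOV fall was -1.09 with no filter (adjusted p = 0.135) and -1.23 to -0.936 with an array left out. No direction reversed. The 40 named genes gave 622 alternative values, of which 586 stayed past the threshold and 36 did not. All called genes of the lists gave 3414, of which 1081 lost the call. With the replicate number as a block 420 genes were called (213 higher, 207 lower) and 922 between the siRNAs, and of the receptor tyrosine kinase list 6 were higher and 1 lower. Deviations of same-numbered arrays correlated at 0.265, 0.205 and 0.251, but with 2 numbers per group this does not show that the numbers pair the samples. Why the counts moved was not tested.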
